A study of Mus musculus with 7 samples.

Results

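The genes Sox9, Krt7, Krt19, Epcam, Spp1, Cd24a and Prom1 mark the cells lining the bile ducts (cholangiocytes) and the progenitor-type cells that appear around the portal veins of injured livers, and were followed across mouse liver arrays. They were taken by gene symbol from the named probe sets of the array, keeping the probe set with the highest mean where a gene had several. Of these 7 genes, 6 were measured, among 16819 genes in all, each by 1 probe set, and Spp1 was not analysed here. All mice were males of a mixed 129S4 and C57BL/6 background that carried loxP-flanked Dicer1 on both chromosomes (Dicer1 fl/fl), the controls included. AAV8-Ttr-Cre, a virus that carries the Cre recombinase, was given at 8 to 10 weeks of age. Whole liver was taken after a fast at 2 weeks after the virus (2 arrays), at 4 weeks (2 arrays), or at 0 weeks as control (3 arrays). Arrays of 1 group are labelled as biological replicates.

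The transthyretin (Ttr) promoter that drives Cre is active in hepatocytes, so the bile duct cells of these livers are not the cells in which Dicer1 was to be deleted. The labels name no group given a virus without Cre. The samples are pieces of whole liver, in which bile duct cells are a small minority, so more or fewer cells of a type and more or less RNA per cell cannot be told apart here.

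Cholangiocytes and hepatocytes come from a common embryonic precursor, the hepatoblast. Notch signals and the factor SOX9 favour the bile duct identity, and the duct lining is held together by the simple keratins KRT7 and KRT19 beside KRT8 and KRT18. After many kinds of liver injury small duct-like cells multiply around the portal veins, which is called the ductular reaction, and some hepatocytes take on SOX9 or other duct genes. Dicer1 encodes the enzyme that cuts hairpin precursors into mature microRNAs.

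The arrays gave log2 signals with nearly equal medians, from 7.07 to 7.09, and values from 3.15 to 14.7. No detection call came with them, so the 287 olfactory receptor genes, which liver is not known to use, served as a scale for dim signals. Their mean log2 signals had a median of 5.57 and a 95th percentile of 6.85. Dicer1 was measured at log2 8.73, 8.71 and 8.58 in the 3 control livers, 8.03 and 7.79 at 2 weeks, then 7.97 and 8.05 at 4 weeks, with no overlap between livers after Cre and control livers. Of all genes, 12.2% had all 4 arrays after Cre below the 3 control arrays. Against control, Dicer1 fell by 0.76 ± 0.09 (2 weeks) and by 0.66 ± 0.09 (4 weeks) on the log2 scale (SE, limma adjusted p = 0.0158 and 0.0159). The 8 measured hepatocyte markers all had mean signals above the olfactory 95th percentile. Of the 6 duct and progenitor markers, Sox9 alone did.

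The mean log2 signal of Sox9 over the 7 arrays was 7.89, above the mean of 99.3% of the olfactory receptor genes. For Krt19 it was 6.60 (93.0% of these genes lay below), for Krt7 6.43 (88.5%) and for Epcam 6.27 (87.1%). Prom1, at 5.61, lay above 53.7% of them, and Cd24a, at 5.17, above 19.2%. Of the 6 markers, 5 therefore had mean signals under the 95th percentile of genes that liver is not known to express, and 2 olfactory receptor genes lay above Sox9, Olfr1174 at 8.40 and Olfr239 at 8.38. This places each probe set against a dim background and does not rank the genes by transcript amount, since each probe set has its own response.

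**Figure D1:**
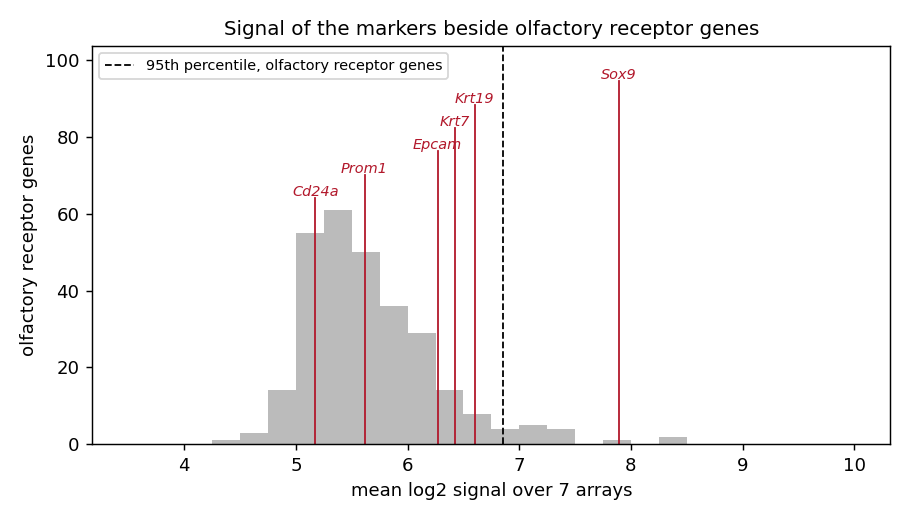
Mean log2 signal over the 7 arrays (horizontal axis) of the 287 olfactory receptor genes, as a histogram with the number of genes on the vertical axis, and of the 6 markers as labelled lines whose heights carry no value. The dashed line is the olfactory 95th percentile, 6.85; Sox9, at 7.89, is the marker to its right.

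Of the 6 markers, Sox9 was the one that rose after Cre, and the change was small. At 4 weeks 1 of 6 markers passed the test as higher and 0 as lower, in a comparison in which 5.15% of all genes passed as higher and 4.62% as lower. At 2 weeks 0 of 6 passed in limma, against 5.93% of all genes in either direction (3.46% higher, 2.47% lower); Sox9 had an unadjusted p under 0.05 (0.0128). With the 2 times averaged and set against control, named after Cre from here on, 1 of 6 passed as higher, where 6.79% of all genes did. Between 4 and 2 weeks 0 of 6 passed in limma, against 0.00595% of all genes, and 0 had an unadjusted p under 0.05. The median log2 fold change of the 6 markers was 0.10 at 2 weeks, 0.08 at 4 weeks and 0.09 after Cre, beside medians over all genes of -0.0024, 0.0080 and 0.0028. The comparisons at 2 and at 4 weeks share the same 3 control livers.

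**Figure D2:**
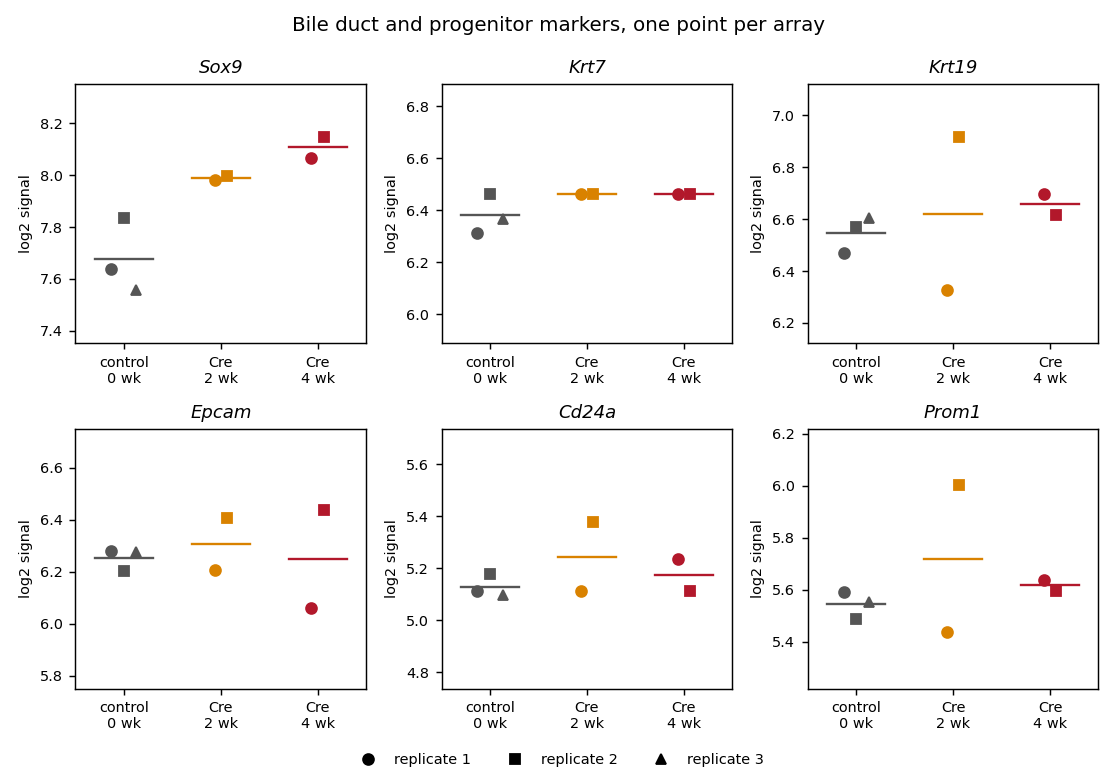
Log2 signal (vertical axis, a scale of its own in each panel) of the 6 markers on each of the 7 arrays, by group at 0 weeks (control), 2 weeks and 4 weeks; each point is 1 array and each bar the group mean. The 4 arrays after Cre lie above the 3 control arrays for Sox9, while at 2 weeks the 2 arrays of Krt19 and Prom1 lie at both ends of the range.

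SOX9 is a transcription factor of the duct lineage that is also found in hepatocytes near the portal veins of injured livers. Its log2 signal was 7.64, 7.83 and 7.56 in the 3 control livers, 7.98 and 8.00 at 2 weeks, then 8.07 and 8.15 at 4 weeks. All 4 arrays after Cre were above all 3 control arrays, and both 4-week arrays were above both 2-week arrays. Beside this, 17.3% of all genes had 2-week arrays wholly above the control arrays, 12.9% had all 4 arrays after Cre above them, and 15% had 4-week arrays above the 2-week ones. The group means were 7.99 ± 0.01 at 2 weeks and 8.11 ± 0.06 at 4 weeks (SD, n = 2 each), against 7.68 ± 0.14 in control livers (SD, n = 3). At 4 weeks Sox9 rose 1.35-fold, with a 95% confidence interval from 1.16 to 1.56 (log2 fold change 0.43 ± 0.09 SE, limma adjusted p = 0.0401). At 2 weeks its log2 fold change was 0.31 ± 0.09 (SE) and did not pass (limma adjusted p = 0.102), with an interval of 1.07- to 1.44-fold. After Cre, over both times, Sox9 rose 1.29-fold with an interval of 1.14 to 1.47 (limma adjusted p = 0.0298). The difference between 4 and 2 weeks, 0.12 ± 0.10 (SE) on the log2 scale, did not pass (limma adjusted p = 0.817).

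The call on Sox9 lies close to its threshold. It was kept at 4 weeks when control replicate 2, its highest control array, was left out (limma adjusted p = 0.0433). The call was lost when any 1 of the other 6 arrays was left out. The log2 fold change lay between 0.37 and 0.51 in all 7 cases. In a fit of the 4-week and control arrays alone the call was lost too (limma adjusted p = 0.0681). Leaving out either 2-week array gave this same fit, so these losses are 1 result. After Cre the call was likewise kept without control replicate 2 alone (limma adjusted p = 0.0322 to 0.103 over the 7 cases).

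**Figure D3:**
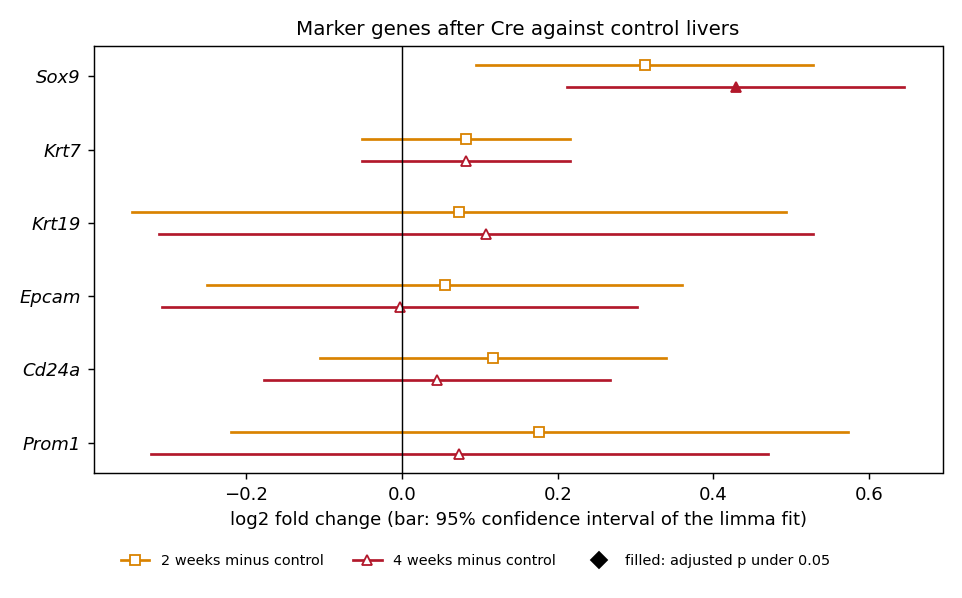
Log2 fold change (horizontal axis) of the 6 markers at 2 weeks (squares) and 4 weeks (triangles) against control, with the 95% confidence interval of the limma fit as a bar and the filled symbol marking an adjusted p under 0.05. The filled symbol is Sox9 at 4 weeks, 0.43; the intervals of the other 5 markers cross 0 at both times.

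KRT7 and KRT19 are keratins of simple ducts, used by pathologists to stain cholangiocytes, and KRT19 marks the ductular reaction. Krt7 had log2 signals of 6.31, 6.46 and 6.37 in control livers, and 6.46 on every one of the 4 arrays after Cre. The same deposited value stood on 5 of the 7 arrays, control replicate 2 included, so the groups overlapped and the SD after Cre was 0. Repeated values were common in the deposited table: 8.50% of all genes had one value on at least 5 arrays, and 58.4% on at least 2. The log2 fold change of Krt7 was 0.08 ± 0.05 (SE) at either time (limma adjusted p = 0.430 at 2 weeks and 0.426 at 4 weeks), with an interval of 0.96- to 1.16-fold.

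Krt19 had log2 signals of 6.47, 6.57 and 6.60 in control livers, 6.33 and 6.92 at 2 weeks, then 6.70 and 6.62 at 4 weeks. The 2 arrays at 2 weeks held both the lowest and the highest value of the 7. At 4 weeks both arrays were above all 3 control arrays, but by little: the log2 fold change was 0.11 ± 0.17 (SE, limma adjusted p = 0.758), with an interval of 0.81- to 1.44-fold. Beside it, 21.6% of all genes had 4-week arrays that lay wholly above the control arrays. At 2 weeks the log2 fold change was 0.07 ± 0.17 (SE, limma adjusted p = 0.842), and its sign rested on replicate 2: without that array it was -0.22, and without replicate 1 it was 0.37 (limma adjusted p = 0.187 and 0.0450).

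Of the 4 keratins of simple epithelia, Krt7, Krt8 and Krt18 lie in one keratin cluster on mouse chromosome 15, and 2 of them rose while Krt7 did not pass. Krt8 and Krt18 are made by hepatocytes as well as by duct cells, where they pair into the filaments of the cell. Krt18 had log2 signals of 10.2, 10.7 and 10.5 in control livers, 11.1 and 11.5 at 2 weeks, then 11.8 and 11.9 at 4 weeks. By 2 weeks Krt18 rose 1.81-fold (limma adjusted p = 0.0473), and by 4 weeks 2.55-fold (limma adjusted p = 0.0143). Krt8 had log2 signals of 11.3, 11.5 and 11.2 in control livers, 11.8 and 12.0 at 2 weeks, then 11.8 and 12.2 at 4 weeks. It rose 1.61-fold at 4 weeks (log2 fold change 0.69 ± 0.14 SE, limma adjusted p = 0.0404), and at 2 weeks its 0.56 ± 0.14 (SE) did not pass (limma adjusted p = 0.0796). The call on Krt18 was kept in 1 (2 weeks) and 4 (4 weeks) of the 7 fits that each left out 1 array, and the 4-week call on Krt8 in 0 of 7. Whether the change of Krt18 differs from that of Krt7 was not tested.

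The 250 bases before the start of each of these 3 genes are shown, to set the promoter of the duct keratin beside those of the pair that rose. They come from the RefSeq table for GRCm38.p6, at chr15:101412153-101412402 for Krt7 (plus strand), chr15:102004343-102004592 for Krt8 (minus strand) and chr15:102027966-102028215 for Krt18 (plus strand), each written 5′ to 3′ along its own gene. Capitals mark matches to the GC box letters GGGCGG on either strand.
Krt7: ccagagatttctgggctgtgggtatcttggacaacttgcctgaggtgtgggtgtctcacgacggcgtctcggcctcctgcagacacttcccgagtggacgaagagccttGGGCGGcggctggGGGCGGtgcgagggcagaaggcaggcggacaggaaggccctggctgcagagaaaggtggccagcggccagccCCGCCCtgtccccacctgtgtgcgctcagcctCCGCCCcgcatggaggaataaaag
Krt8: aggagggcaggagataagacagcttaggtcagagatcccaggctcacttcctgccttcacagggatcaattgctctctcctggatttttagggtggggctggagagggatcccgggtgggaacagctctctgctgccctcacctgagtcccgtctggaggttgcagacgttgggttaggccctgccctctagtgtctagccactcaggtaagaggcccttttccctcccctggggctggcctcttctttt
Krt18: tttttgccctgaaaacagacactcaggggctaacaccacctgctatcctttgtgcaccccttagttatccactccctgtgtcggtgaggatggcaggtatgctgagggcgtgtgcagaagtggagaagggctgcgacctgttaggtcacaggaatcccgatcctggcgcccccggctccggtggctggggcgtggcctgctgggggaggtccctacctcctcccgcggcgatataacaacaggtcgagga
The Krt7 stretch held 4 matches to GGGCGG, 2 as GGGCGG and 2 as CCGCCC on the strand shown, with the nearest ending 19 bases before the start. The Krt8 and Krt18 stretches held 0, and 32.7% of all promoter stretches of this length in the table held at least 1. None of the 3 stretches held TATAAA or TGANTCA on either strand, which 12.4% and 6.75% of all such stretches did; the matches do not overlap. A match is a run of letters and not a known binding site. Of the 7 markers, 4 had an entry in the promoter table; Sox9, Krt19 and Cd24a had none.

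EPCAM, CD24 and CD133 (the product of Prom1) are surface proteins by which duct and progenitor cells of the liver are sorted. Epcam, an adhesion molecule, had log2 signals of 6.28, 6.20 and 6.28 in control livers, 6.21 and 6.41 at 2 weeks, then 6.06 and 6.44 at 4 weeks. Its 2 arrays at 4 weeks were the lowest and the highest of the 7, and the groups overlapped at both times. Its log2 fold change was 0.05 ± 0.12 (SE) at 2 weeks and -0.0031 ± 0.12 (SE) at 4 weeks (limma adjusted p = 0.838 and 1), with an interval at 4 weeks of 0.81- to 1.23-fold.

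Cd24a, which encodes a small glycoprotein anchored in the membrane, had log2 signals of 5.11, 5.18 and 5.10 in control livers, 5.11 and 5.38 at 2 weeks, then 5.23 and 5.11 at 4 weeks. The arrays after Cre overlapped the control arrays at both times. Its log2 fold change was 0.12 ± 0.09 (SE) at 2 weeks and 0.04 ± 0.09 (SE) at 4 weeks (limma adjusted p = 0.498 and 0.819), and the 4-week interval was 0.88- to 1.20-fold.

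Prom1, which encodes a protein of membrane protrusions, had log2 signals of 5.59, 5.49 and 5.55 in control livers, 5.44 and 6.00 at 2 weeks, then 5.64 and 5.60 at 4 weeks. As with Krt19, the 2-week arrays held the lowest and the highest of the 7 values, and the 4-week arrays lay just above the control arrays. Of all genes, 21.6% had 4-week arrays wholly above the control arrays. The log2 fold change was 0.18 ± 0.16 (SE) at 2 weeks and 0.07 ± 0.16 (SE) at 4 weeks (limma adjusted p = 0.568 and 0.837). At 2 weeks it was -0.11 without replicate 2 and 0.46 without replicate 1 (limma adjusted p = 0.383 and 0.0195). After Cre it passed without that replicate 1 (0.27, limma adjusted p = 0.0224), against 0.12 ± 0.13 (SE, limma adjusted p = 0.601) with all arrays. The interval at 4 weeks was 0.80- to 1.39-fold.

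The second array at 2 weeks was the highest of the 7 arrays for 3 of the 6 markers, Krt19, Cd24a and Prom1, and for 16.7% of all genes. The second array at 4 weeks was the highest for Sox9 and Epcam, and for 14.8% of all genes. For the 5 markers other than Sox9 the tests do not show that the genes stayed level. Their probe sets were dim, so the intervals given above are for the array signal and set no limit on a change of the transcripts, and that of Krt7 rests on a value repeated on 5 of 7 arrays.

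The genes whose course over the 7 arrays came closest to a marker were found for the 3 markers that spanned at least 0.5 log2 units, by the root mean square difference of the log2 signals after each gene was centred on its own mean. Closest to Sox9 were Pmepa1, which encodes a membrane protein induced by TGF-beta, at 0.048, Ccdc50 at 0.050 and Zdhhc20, an enzyme that attaches palmitate to proteins, at 0.053. Pmepa1 had log2 signals of 7.87, 8.08 and 7.82 in control livers, 8.22 and 8.19 at 2 weeks, then 8.19 and 8.31 at 4 weeks. Closest to Krt19 were Mterf2, Birc2 and the olfactory receptor gene Olfr433, at 0.048 to 0.051. Closest to Prom1 were Nfkb2, Fchsd2 and Msn, at 0.032 to 0.038. The courses of these last 6 genes, as of Krt19 and Prom1 themselves, had their highest value on the second array at 2 weeks.

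Around the markers, 4 lists of genes were read: other genes of ducts and progenitors, the Notch pathway, the Hippo and Yap pathway, and the growth signals of the ductular reaction. Krt8, Krt18, Cdh1 and Met, which rose, are made by hepatocytes too. Of the other duct and progenitor genes, 29 of 34 were measured and 12 of these had mean signals above the olfactory 95th percentile. At 2 weeks 1 of 29 rose (Krt18) and 0 fell, in a comparison in which 3.46% of all genes rose. At 4 weeks Krt8 and Krt18 rose and Mmp7 fell, 3 of 29 against 9.77% of all genes. After Cre 4 of 29 rose and 0 fell (12.9% of all genes passed). The median log2 fold change of the 29 genes was 0.14 at 2 weeks, 0.11 at 4 weeks and 0.07 after Cre.

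The 4 genes after Cre were Krt18 (2.15-fold), Krt8 (1.54-fold), Cdh1 and Onecut2. Cdh1 encodes E-cadherin, the adhesion molecule of epithelia that hepatocytes around the portal veins also carry. Its log2 signals were 8.862, 9.159 and 8.996 in control livers, 9.675 and 10.76 at 2 weeks, then 10.23 and 10.42 at 4 weeks, and it rose 2.40-fold after Cre (limma adjusted p = 0.0329). At either time alone Cdh1 did not pass (limma adjusted p = 0.0832 at 2 weeks and 0.0563 at 4 weeks). Onecut2, a transcription factor of hepatoblasts and bile duct formation, rose 1.26-fold after Cre (limma adjusted p = 0.0339). Mmp7, a matrix protease of injured ducts, was 1.21-fold lower at 4 weeks (limma adjusted p = 0.0463), from a mean log2 signal under the olfactory 95th percentile, at 5.45 and 5.41 at 4 weeks against 5.81, 5.66 and 5.66 in control livers. The water channel gene Aqp1, which duct cells and endothelium share, had a log2 fold change of -0.06 ± 0.15 (SE) at 2 weeks and 0.20 ± 0.15 (SE) at 4 weeks.

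All 15 genes of the Notch list were measured. At 2 and at 4 weeks 0 of 15 passed in limma, where 5.93% and 9.77% of all genes did. At each time 5 had an unadjusted p under 0.05, as did 3862 of all 16819 genes at 2 weeks and 4169 at 4 weeks. After Cre 3 of 15 rose and 0 fell, where 6.79% of all genes rose. The list's median log2 fold change was 0.08 at 2 weeks, 0.14 at 4 weeks and 0.08 after Cre. The 3 were the receptor gene Notch1, the target gene Hes1 and Maml1, which encodes a coactivator of the pathway. Notch1 had log2 signals of 8.22, 8.16 and 8.13 in control livers, 9.80 and 8.93 at 2 weeks, then 9.01 and 8.79 at 4 weeks, with no overlap. Of all genes, 12.9% had all 4 arrays after Cre above the 3 control arrays. Notch1 rose 1.94-fold after Cre (limma adjusted p = 0.0369). Hes1 had 7.24, 7.69 and 6.98 in control livers, 8.24 and 8.20 at 2 weeks, then 8.97 and 8.19 at 4 weeks, and rose 2.14-fold (limma adjusted p = 0.0398). Maml1 rose 1.37-fold (limma adjusted p = 0.0432). Other genes of the list did not follow these 3. After Cre Hey1, Heyl and Nrarp had log2 fold changes of 0.20, 0.06 and -0.01 and did not pass. Those of Jag1, Jag2, Dll1, Dll4 and Rbpj lay between -0.09 and 0.08 and did not pass either. Notch2, the receptor through which mouse bile ducts form, had a log2 fold change of 0.43 ± 0.13 (SE) at 2 weeks and 0.42 ± 0.13 (SE) at 4 weeks (limma adjusted p = 0.125 and 0.113). Numb, an inhibitor of Notch, had 0.30 ± 0.09 (SE) and 0.29 ± 0.09 (SE) at these times (limma adjusted p = 0.128 and 0.122).

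YAP and TAZ are coactivators that the Hippo kinases hold in check and that can turn hepatocytes toward a duct-like state. Of this list 15 of 16 were measured. At 2 weeks 0 of 15 passed in limma, where 5.93% of all genes did. Of the 15, 3 had an unadjusted p under 0.05, as did 3862 of all 16819 genes. At 4 weeks 1 of 15 rose, Ccn1, against 5.15% of all genes, and after Cre 2 rose, Ccn1 and Wwtr1, against 6.79%. The list's median log2 fold change was 0.10 at 2 weeks, 0.07 at 4 weeks and 0.08 after Cre. Ccn1, a secreted matrix protein and target of YAP, had log2 signals of 8.06, 8.29 and 7.74 in control livers, 8.65 and 8.71 at 2 weeks, then 9.19 and 8.74 at 4 weeks. It rose 1.91-fold at 4 weeks (limma adjusted p = 0.0432). Wwtr1, which encodes TAZ, rose 1.47-fold after Cre (limma adjusted p = 0.0421). Ccn2, Ankrd1, Amotl2 and Axl, of the same list, did not pass at 2 weeks, at 4 weeks or after Cre. At 2 weeks their log2 fold changes were -0.22, 0.20, -0.06 and 0.05. Yap1 itself had a log2 fold change of 0.14 ± 0.06 (SE) at 2 weeks and 0.06 ± 0.06 (SE) at 4 weeks, and the kinase gene Lats1 0.22 ± 0.07 (SE) and 0.28 ± 0.07 (SE); none of these passed (limma adjusted p = 0.0685 to 0.610).

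Of the growth signals of the ductular reaction 14 of 18 were measured, and 1 rose at 2 weeks, 2 at 4 weeks and 3 after Cre, with 0 that fell. Of all genes 3.46%, 5.15% and 6.79% rose in these comparisons, and the list's median log2 fold changes were 0.09, 0.04 and 0.06. Met, the receptor for hepatocyte growth factor and present on hepatocytes and progenitors, had log2 signals of 10.6, 10.6 and 10.5 in control livers, 11.1 and 11.3 at 2 weeks, and 11.3 on both arrays at 4 weeks. By 2 weeks Met rose 1.54-fold (limma adjusted p = 0.0139), and by 4 weeks 1.66-fold (limma adjusted p = 0.00867). Hgf, the growth factor itself, made by stellate cells, rose 1.34-fold after Cre (limma adjusted p = 0.0338). Itgav, an integrin chain that helps release TGF-beta, rose 1.24-fold at 4 weeks (limma adjusted p = 0.0280). The integrin genes Itgb1 and Itga9 had log2 fold changes between 0.02 and 0.13 at the 2 times and did not pass. Vcam1, of the same list, went the other way. Its log2 signals were 8.52, 8.13 and 8.05 in control livers, 7.38 and 7.80 at 2 weeks, then 7.38 and 7.66 at 4 weeks. All 4 arrays after Cre lay below the 3 control arrays, as for 12.2% of all genes. Its log2 fold change after Cre, -0.68, was the lowest of the list and did not pass.

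Leaving out 1 array took away many of these calls. At 2 or 4 weeks alone, leaving out either array of the other time gave the same fit, so the 7 are not all separate. After Cre the call on Met was kept in all 7 such fits and that on Krt18 in 5, those on Krt8, Cdh1, Notch1 and Wwtr1 in 2 each, those on Maml1, Hgf and Itgav in 1 each, and those on Onecut2, Hes1 and Ccn1 in 0. The call on Met at 2 weeks was kept in 4 of 7 (limma adjusted p up to 0.0688). At 4 weeks the calls on Met (5 of 7) and Itgav (2 of 7) were kept in part, and those on Ccn1 and Mmp7 in 0 of 7. Cdh1, Onecut2, Notch1, Maml1, Hes1, Wwtr1 and Hgf are named because they passed after Cre, and were chosen after their values were seen. Vcam1, Ccn2, Ankrd1, Amotl2, Axl, Hey1, Heyl, Nrarp, Jag1, Jag2, Dll1, Dll4 and Rbpj did not pass and were also named after their values were seen.

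**Figure D4:**
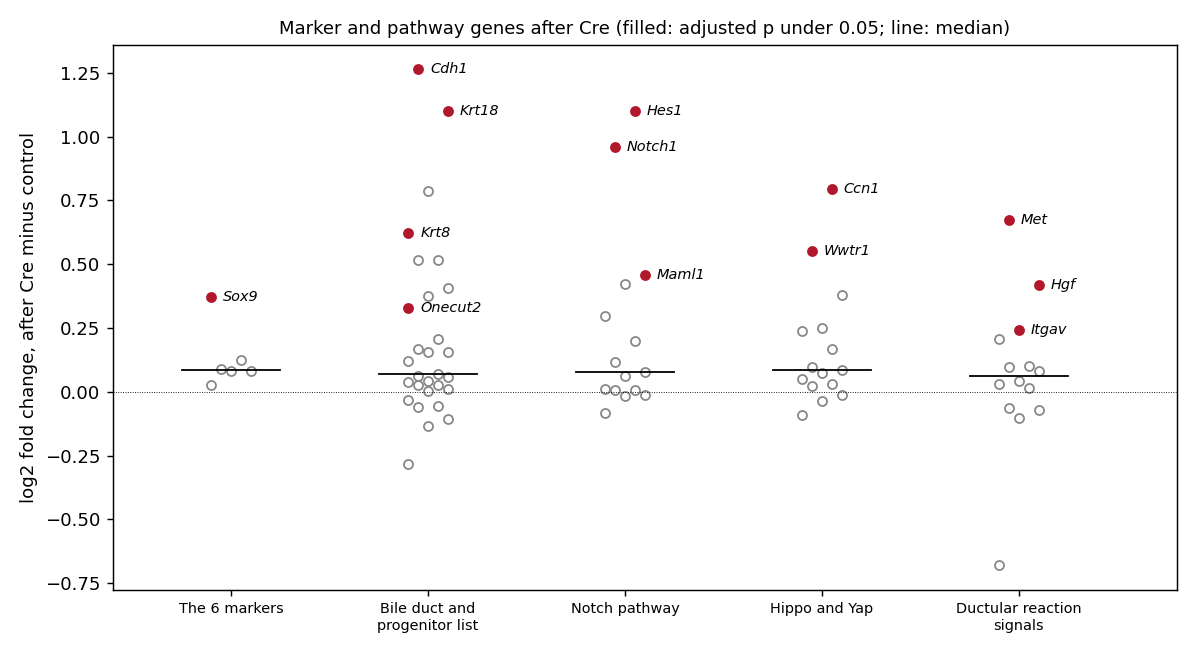
Log2 fold change after Cre against control (vertical axis) of the 6 markers and of the measured genes of the 4 lists, 1 point per gene, filled and named where the limma adjusted p was under 0.05; horizontal bars are list medians. In the duct and progenitor list Cdh1 (1.26), Krt18 (1.10) and Krt8 (0.62) lie higher than Sox9 (0.37), the filled point among the markers.

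**Figure D5:**
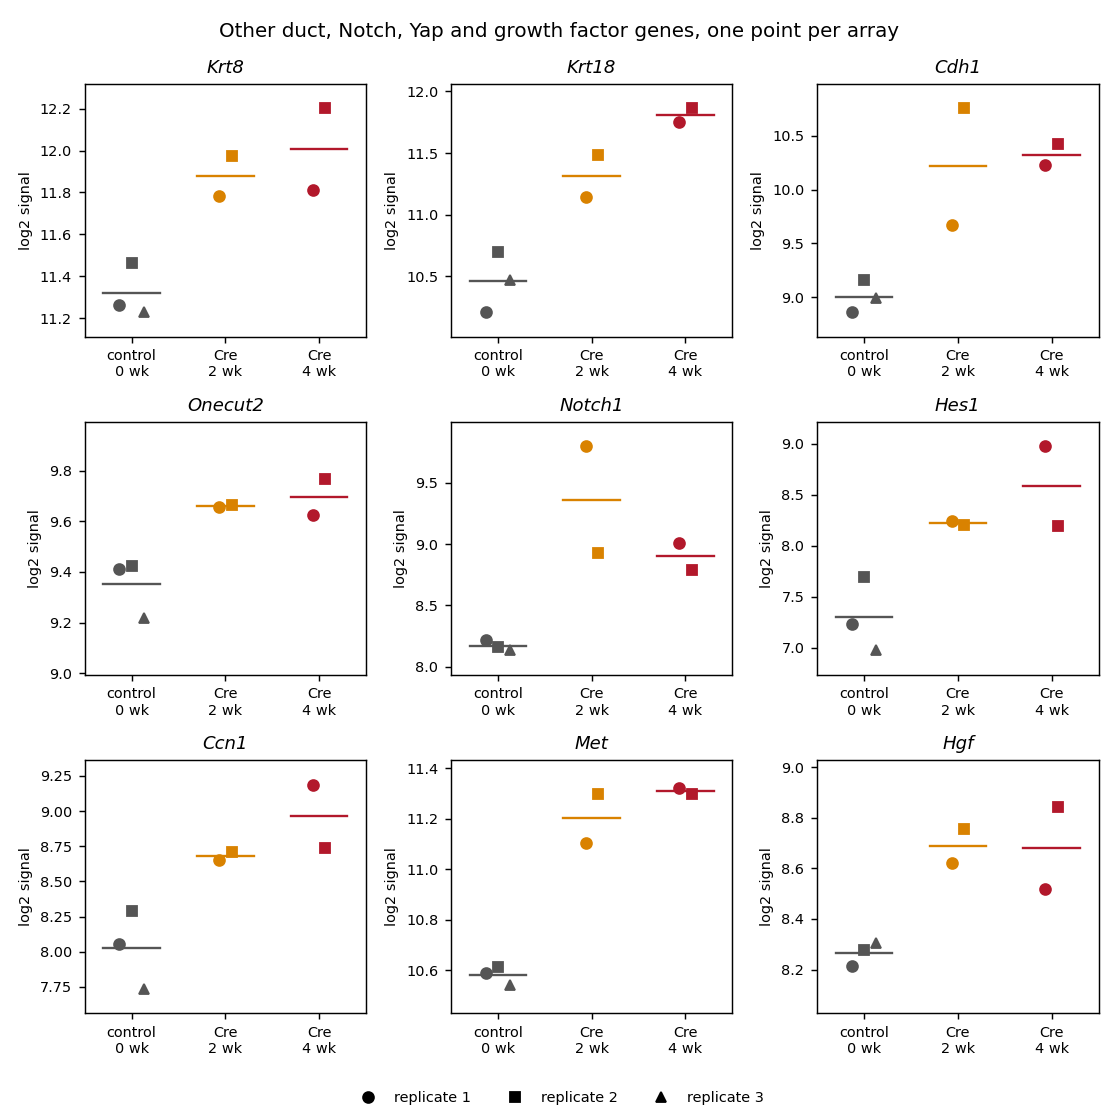
Log2 signal (vertical axis, a scale of its own in each panel) on each of the 7 arrays for Krt8, Krt18, Cdh1, Onecut2, Notch1, Hes1, Ccn1, Met and Hgf, by group at 0 weeks (control), 2 weeks and 4 weeks, with bars at the group means. In each of the 9 panels the 4 arrays after Cre lie above the 3 control arrays, as they do for 12.9% of all genes. The genes were chosen for the plot after their values were seen.

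Of the markers of other liver cells, Tat, Pdgfrb and Clec4g passed in at least 1 comparison. Of all genes 5.93% passed in either direction at 2 weeks, 9.77% at 4 weeks and 12.9% after Cre. Between 4 and 2 weeks 0.00595% did. The counts below stand beside these shares and were not tested against them. The levels after Cre lay apart from the control arrays at both times for the lists of hepatocytes (lower), stellate cells and neutrophils (higher). The mesothelium list did too (lower at 2 weeks, higher at 4 weeks). Such a separation was not particular to other cells. The duct and progenitor, Notch, and Hippo and Yap lists lay above control at both times. Their highest control levels were 7.13, 7.24 and 7.91. Their lowest levels were 7.15, 7.38 and 7.97 at 2 weeks, then 7.197, 7.396 and 8.065 at 4 weeks. The ductular reaction list overlapped at both times, and the 6 markers at 2 weeks. The mean log2 signal of the 8 hepatocyte markers was between 13.0 and 13.1 at 2 weeks and at 13.1 on both arrays at 4 weeks, against 13.2 on each control array. After Cre 1 of these 8 fell, Tat, an enzyme of tyrosine breakdown (1.54-fold lower, limma adjusted p = 0.0334), and 0 rose. The log2 fold change of Tat, -0.62, was the lowest of the 8, beside a list median of -0.06. The lower list mean thus leans on Tat, and no broad fall of the hepatocyte markers is shown. The 10 stellate cell and fibroblast markers had mean log2 signals of 8.46 to 8.64 at 2 weeks and 8.37 to 8.42 at 4 weeks, against 8.24 to 8.30 on the control arrays. After Cre 1 of these 10 rose, Pdgfrb (1.24-fold, limma adjusted p = 0.0238). The 6 neutrophil markers had mean log2 signals of 5.75 to 5.77 at 2 weeks and 5.79 to 5.80 at 4 weeks, against 5.67 to 5.74 on the control arrays, and 0 of the 6 had a mean above the olfactory 95th percentile. The 6 mesothelial markers had mean log2 signals of 6.01 to 6.07 at 2 weeks and 6.15 to 6.16 at 4 weeks, against 6.10 to 6.12 on the control arrays, and 0 of these 6 had a mean above that percentile. The levels of the macrophage list overlapped (7.99 to 8.30 at 2 weeks and 7.93 to 8.26 at 4 weeks, against 8.05 to 8.22 on the control arrays). The 8 endothelial markers had mean log2 signals of 8.79 to 9.17 at 2 weeks and 9.05 to 9.18 at 4 weeks, against 8.92 to 9.01 on the control arrays. Both 4-week arrays were thus above all control arrays. Of these 8, Clec4g rose at 4 weeks (1.51-fold, limma adjusted p = 0.0438). Its log2 fold change there, 0.60, was the highest of the 8, beside a list median of 0.14, so the list mean leans on Clec4g. Of 10 macrophage, 6 neutrophil, 6 T and B cell, 6 mesothelial, 5 pancreatic and 8 proliferation markers 0 passed in limma in any of the 4 comparisons, with at most 2 per list at an unadjusted p under 0.05. The proliferation markers had mean log2 signals of 6.12 to 6.27 at 2 weeks and 6.24 to 6.53 at 4 weeks, against 6.07 to 6.17 on the control arrays, and 0 of the 8 had a mean above the olfactory 95th percentile. The part of these other cells in the values of Sox9, the keratins, Hgf and the rest was not tested.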

How the data were processed

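Per the labels, 7 Affymetrix whole-transcript arrays carried biotin-labelled RNA of whole livers. The authors deposited 1 log2 signal for each probe set on each array, a scale read from the values; the sources used here do not give how background correction, normalization and summarisation were done. GCOS 1.4 is named in the submitters' processing notes, with no role. The platform annotation gave 1 symbol to 17709 of the 21093 probe sets, several to 187 and none to 3197; 17648 matched a RefSeq gene number (GRCm38.p6), which changed 0 symbols. Of the 16819 genes, 463 had several probe sets, and the one with the highest mean was kept; Spp1 is not reported here. The markers and lists were chosen with earlier results of these data known.

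The log2 values were used as deposited, with no filter. A model of the 3 group means was fitted to all genes with limma 3.58.1 in R 4.3.3 (lmFit, eBayes; two-sided), with 4 residual degrees of freedom and a prior of 1.69. Adjusted p-values are Benjamini-Hochberg values over all 16819 genes, and an adjusted p under 0.05 counted as rose or fell. The fit was tested on simulated data with changes that were the same at both times. Each gene's values were drawn from a normal distribution, without repeated values, and few genes were changed. The real arrays held many repeated values and many more genes that passed, so the shares found and false may not hold for them. Of changes of 0.5 log2 units it found 46.2% at 2 weeks, 43.6% at 4 weeks and 55.5% after Cre. Of its calls there, over changes of 0.5, 1 and 2 log2 units together, 4.19%, 4.97% and 4.76% were false. No change between 4 and 2 weeks was simulated, so that comparison was not tried. The number of arrays limits the precision. The p-values rest on the spread between arrays of a group, which eBayes moderates across genes. Values repeated between arrays (58.4% of genes on at least 2) can make that spread too small, and their source is not known. All markers are named; from each list, the genes past the threshold at 2 or 4 weeks (up to 6) and up to 2 with the highest signal that did not pass. The promoter stretches and motifs were chosen after the values were seen. Alternatives were the compared groups alone, a replicate block, re-centred arrays, quantile normalization, the mean of a gene's probe sets, dim genes left out, an intensity trend, robust eBayes, array weights, and leaving out each array. Same-numbered arrays of different groups did not deviate together (correlations across genes from -0.065 to 0.11), so the numbers were not used as pairs.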

Additional observations from a re-analysis of the deposited data

How the results depend on the processing

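Among the markers, the count that passed at 2 weeks was 0 with all arrays and 0 to 2 when 1 array was left out (2, Krt19 and Prom1, without replicate 1 at 2 weeks). At 4 weeks it was 1, and 0 with the 2 compared groups alone, where Sox9 had a limma adjusted p of 0.0681; leaving out 1 array gave 0 to 1. After Cre it was 1, and 0 to 1 with an array left out (Sox9 without control replicate 2, Prom1 without replicate 1 at 2 weeks). Between 4 and 2 weeks it was 0 under each alternative. With the replicate block, which uses 2 more degrees of freedom, the count was 0 at 4 weeks (Sox9 0.37, limma adjusted p = 0.115) and 0 after Cre (Sox9 0.31, limma adjusted p = 0.104), and the counts over all genes were 0, 2 and 5 at 2 weeks, at 4 weeks and after Cre, against 997, 1643 and 2171 without it. Replicate number 3 occurs in the control group alone, so the block in effect sets that array aside. Its fold changes equal those without control replicate 3 (Sox9 0.37 at 4 weeks in both), so the 2 are not separate checks. Under the block Mmp7 at 2 weeks had -0.013 against 0.011, and Epcam at 4 weeks had 0.0082 (0.0035 with array weights) against -0.0031. Neither passed. Apart from leaving out an array, Sox9 passed in 7 of 9 alternatives at 4 weeks and in 0 of 9 at 2 weeks (limma adjusted p = 0.0628 to 0.272). Several of these leave the Sox9 values as they were, so the 7 are not separate checks. Sox9 has 1 probe set, and dim genes left out, the intensity trend and robust eBayes alter only its error estimate or adjustment. The count over all genes at 2 weeks was 276 with the compared groups alone, 439 with array weights and 1635 with dim genes left out, where Sox9 was the one marker still tested. Leaving out 1 array gave 41 to 2168 genes at 2 weeks, 63 to 1948 at 4 weeks and 570 to 2788 after Cre. Between 4 and 2 weeks the 1 gene called was lost in the block, the compared groups and each such fit. The fits with 1 array left in a group assume that it varies like the others. In these fits 26 of 588 single-gene values changed sign, and 0 of these 26 passed. Their lowest and highest values over the 7 fits at 2 weeks were -0.22 and 0.37 for Krt19, -0.045 and 0.15 for Epcam, -0.016 and 0.25 for Cd24a, -0.11 and 0.46 for Prom1, -0.018 and 0.060 for Mmp7, -0.24 and 0.13 for Aqp1, and -0.00078 and 0.044 for Itgb1. At 4 weeks they were -0.19 and 0.19 for Epcam, -0.016 and 0.11 for Cd24a, and -0.056 and 0.12 for Itga9. Between 4 and 2 weeks they were -0.26 and 0.33 for Krt19, -0.25 and 0.13 for Epcam, -0.20 and 0.061 for Cd24a, and -0.39 and 0.18 for Prom1. After Cre they were -0.057 and 0.24 for Krt19, -0.069 and 0.12 for Epcam, -0.016 and 0.27 for Prom1, and -0.023 and 0.16 for Aqp1. With no detection call, the dim signals of 5 markers limit what could be seen.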
